A study of Mus musculus with 24 samples.

Results

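The genes described here carry out antigen presentation by MHC class I in the mouse brain after traumatic brain injury (TBI). They were taken by symbol from the expression table: the heavy chains H2-D1 and H2-K1, the light chain B2m, the peptide transporter subunits Tap1 and Tap2, tapasin (Tapbp), the immunoproteasome subunits Psmb8, Psmb9 and Psmb10, and the transactivator Nlrc5. All 10 were among the 36333 genes listed, and all 10 passed the filter on low expression (0.5 TPM on average) that 17267 genes passed to be tested. TPM, transcript levels per gene length, add up to the same total in each library. The methods add that the software used calls this unit CPM, so scaling by gene length rests on the name TPM. Levels and ratios of different genes depend on that scaling. RNA was sequenced from 24 male mice, 1 library per mouse, at 5 days after a controlled cortical impact through a craniotomy over the right parietal cortex, or after sham surgery. Vehicle mice (n = 5) had TBI and received vehicle chow and saline. PLX3397 mice (n = 5) had TBI and received chow with 290 mg PLX3397 per kg food, an inhibitor of the receptor CSF1R on which microglia depend. Anakinra mice (n = 5) had TBI and received 100 mg/kg subcutaneous Anakinra, a blocker of the interleukin-1 receptor IL1R1. PLX3397+Anakinra mice (n = 5) had TBI and received both drugs at these doses. Sham mice (n = 4) received vehicle after a skin incision without craniotomy or impact, so that craniotomy and impact cannot be told apart in any comparison with Sham. The labels give the mice as C57BL6N, aged 12 to 16 weeks, and the tissue as cortex after TBI. The methods instead name C57BL/6JRj mice, an age range that ends below 16 weeks, and sections with cortex, striatum, dorsal hippocampus and thalamus. Between 22160 and 23249 genes per library were above 0, and read depth is unknown because TPM keep no counts.

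A class I molecule is a heavy chain paired with β2-microglobulin that holds a short peptide at the cell surface, where CD8+ T cells and natural killer cells read it. The peptides are cut by the proteasome, pumped into the endoplasmic reticulum by TAP and loaded with the help of tapasin. Interferons raise most of these genes: they replace the constitutive catalytic proteasome subunits with those of the immunoproteasome and induce NLRC5, which acts at class I promoters. Healthy neurons and glia carry little class I, and microglia and infiltrating leukocytes are known sources after injury. In whole tissue, fewer cells of a type and less RNA per cell cannot be told apart.

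Of the 10 genes, 7 lie on chromosome 17 between positions 33919478 and 35267497 (GRCm38.p6, RefSeq), in the order Tapbp, H2-K1, Psmb9, Tap1, Psmb8, Tap2 and H2-D1. B2m lies on chromosome 2 (122147687 to 122153082), and Nlrc5 and Psmb10 lie on chromosome 8. RefSeq promoter windows, from 250 bases before to 50 after a start site, were at hand for 8 of the 10, without Tap2 and Nlrc5. The upstream 250 bases are shown for both heavy chains, for B2m and for Tap1, whose window overlapped that of Psmb9. Sequences of the other windows are not shown, and no link between sequence and expression was tested. Capitals mark matches to 4 motifs searched on both strands: GAAANNGAA (core of the interferon-stimulated response element), TTCNNNGAA (gamma-activated site), GGGGATTCC (kappa B site of the class I enhancer) and CCAAT.
H2-D1, chr17:35262844-35263093, plus strand: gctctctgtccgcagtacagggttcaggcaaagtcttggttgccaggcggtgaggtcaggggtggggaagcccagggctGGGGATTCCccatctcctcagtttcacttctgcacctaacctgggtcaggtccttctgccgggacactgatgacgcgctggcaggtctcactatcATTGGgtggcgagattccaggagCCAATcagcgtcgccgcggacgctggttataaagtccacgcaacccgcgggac
H2-K1, chr17:34000334-34000583, minus strand: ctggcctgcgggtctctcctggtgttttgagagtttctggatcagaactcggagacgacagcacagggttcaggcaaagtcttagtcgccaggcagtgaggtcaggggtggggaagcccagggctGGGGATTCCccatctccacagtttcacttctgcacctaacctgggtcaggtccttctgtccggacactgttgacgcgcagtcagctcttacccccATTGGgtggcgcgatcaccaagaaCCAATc
B2m, chr2:122147437-122147686, plus strand: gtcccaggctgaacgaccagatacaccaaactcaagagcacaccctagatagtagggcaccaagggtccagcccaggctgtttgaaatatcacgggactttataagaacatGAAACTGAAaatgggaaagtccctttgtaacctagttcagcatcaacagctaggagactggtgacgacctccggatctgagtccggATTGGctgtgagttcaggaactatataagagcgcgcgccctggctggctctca
Tap1, chr17:34187306-34187555, plus strand: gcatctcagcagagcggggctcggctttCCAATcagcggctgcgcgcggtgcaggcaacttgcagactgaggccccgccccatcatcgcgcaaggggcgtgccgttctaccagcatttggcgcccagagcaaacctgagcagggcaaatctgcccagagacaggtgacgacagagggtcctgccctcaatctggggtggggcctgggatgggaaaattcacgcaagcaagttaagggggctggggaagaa
The kappa B letters occurred in H2-D1 and H2-K1, 2 of 8 members, and in 0.25% of 32817 mouse promoter windows. In both heavy chain promoters a CCAAT match followed 95 bases after the kappa B match, and over 160 aligned bases around it the sequences were equal at 146 positions (91.2%). The letters searched for the interferon element core were found in B2m, as GAAACTGAA (8.55% of all windows). Only this form of the core was searched, and forms with other spacing of the letters were not. Windows without a match, including those of both heavy chains, are therefore not shown to lack an interferon element. The gamma-activated letters were found in Psmb8 (8.29% of all windows). CCAAT occurred in 6 of 8 members and in 37.4% of all windows. Tap1 and Psmb9 start 226 bases apart on opposite strands and share 275 of the 300 bases of their windows. No GENCODE transcript started within 50 bases of the RefSeq start used for H2-D1, Psmb8 and Psmb10, so other windows could hold other matches. These matches are letters in fixed windows and not measured binding.

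Heavy chains of class I are close relatives, and reads from one can be assigned to another. How multi-mapped reads were treated is not given in the sources used here. In GENCODE transcripts, 1.54% of the distinct 150-base windows of H2-D1, the read length, were identical in another gene (H2-Q1), and none of those of H2-K1 or of the other 8 members were. Reads with mismatches could still be shared.

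The first comparison asked what TBI did to this pathway. All 10 genes were higher in Vehicle than in Sham, where 26.6% of all genes tested were higher (limma, adjusted p below 0.05). Ratios of group means reached 6.90 for Nlrc5 and 6.19 for Psmb8, lay between 3.79 and 4.60 for both heavy chains, B2m, Tap1 and Psmb9, were 2.30 for Tap2 and 2.17 for Tapbp, and were lowest for Psmb10 (1.15). The median log2 fold change of the 10 was 1.79, against -0.01 over all genes tested. The groups did not overlap for 9 of 10 genes, against 21.7% of all genes in this direction, and overlapped for Psmb10.

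Markers of several cell types differed between the same groups, where 4600 of all 17267 genes tested were higher in Vehicle and 4778 were lower. Besides all 12 microglial markers, described further on, 6 of 8 monocyte and macrophage genes tested were higher in Vehicle and 1 was lower, and the whole list summed to 9.154 to 12.22 TPM in Sham and 73.33 to 151.3 TPM in Vehicle. All 3 neutrophil genes tested were higher, and Mmp8 was listed at 0 in all 4 Sham mice. Astrocyte markers were higher for 7 of 7 genes (summed 1499 to 1656 against 3676 to 4871 TPM), among them Gfap, the astrocyte filament protein, with a 17-fold higher mean. Oligodendrocyte markers were higher for 5 of 5 (4036 to 4205 against 5351 to 5965 TPM) and endothelial markers for 6 of 9 (275.1 to 280 against 310.9 to 368.8 TPM). Neuronal markers were lower for 5 of 5, with sums of 5213 to 5550 TPM in Sham and 3069 to 3789 TPM in Vehicle. The part of these cells in the class I levels was not tested.

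**Figure D1:**
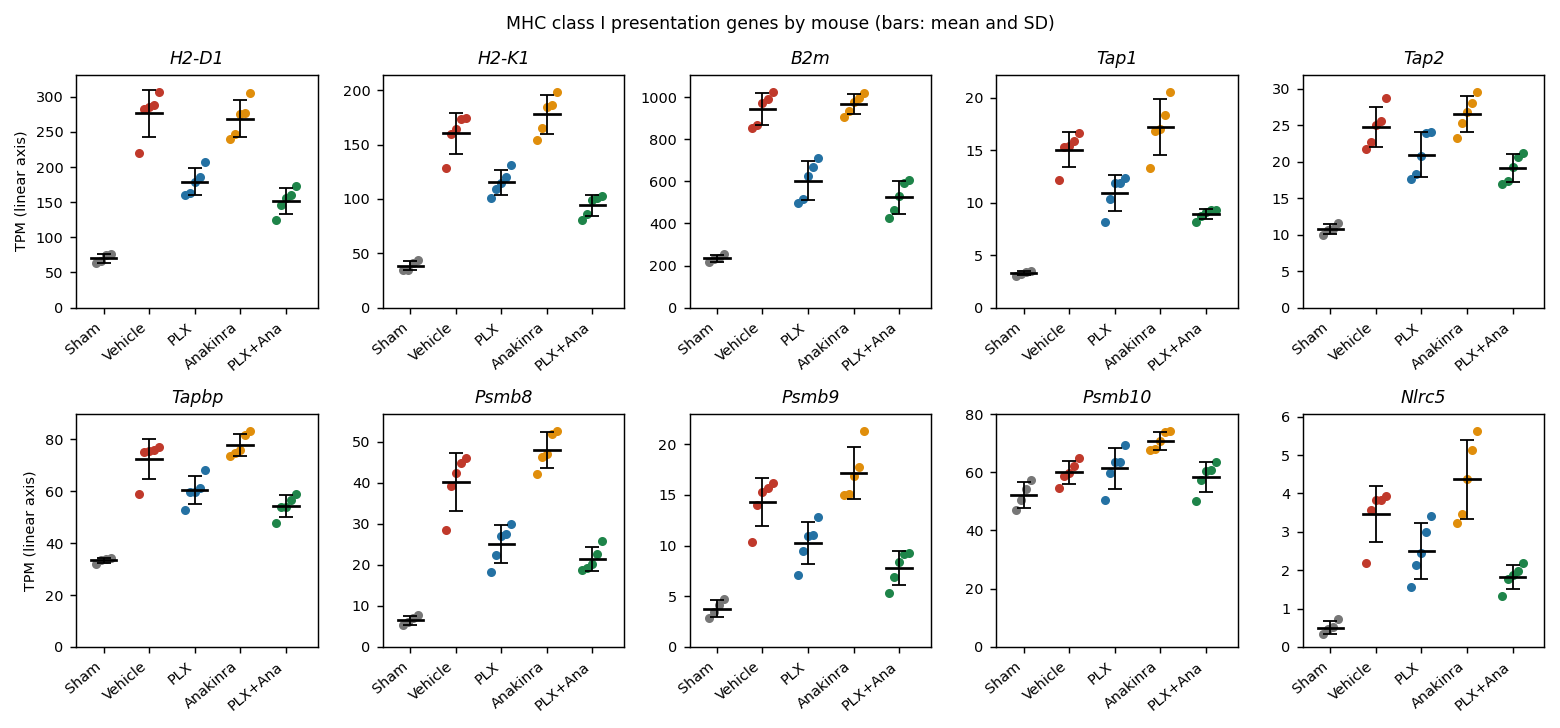
TPM (linear axis) of the 10 genes in each mouse by group, with points for mice and bars for the mean and SD (n = 4 in Sham, 5 in each other group; PLX, PLX3397; Ana, Anakinra). Vehicle and Anakinra stand highest for 9 genes, PLX3397 and PLX3397+Anakinra lie between them and Sham, and the group means of Psmb10 span only 52.3 to 70.9 TPM.

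The heavy chains and the light chain form the complex itself. H2-K1 was at 34.81, 34.92, 41.32 and 43.44 TPM in the Sham mice and at 128.1, 160, 164.7, 174 and 174.8 TPM in the Vehicle mice. With PLX3397 it was at 101, 108.9, 114.3, 120.1 and 131.6 TPM, and with PLX3397+Anakinra at 80.63, 86.46, 99.16, 101.3 and 102.9 TPM. With Anakinra alone it was at 154, 165.1, 184.9, 186.8 and 198.7 TPM. The Sham mice stood far below the rest, the PLX3397+Anakinra mice were all below the Vehicle mice, and the PLX3397 mice overlapped the Vehicle range at its lowest mouse. H2-D1 had means of 69.9 ± 6.23 TPM in Sham (SD, n = 4), 276.5 ± 33.3 TPM in Vehicle, 178.8 ± 19.3 TPM with PLX3397, 269 ± 26.1 TPM with Anakinra and 152 ± 18.2 TPM with PLX3397+Anakinra (SD, n = 5 each).

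B2m was the most abundant of the 10. Its values were 217.4, 229.6, 236 and 256.9 TPM in Sham and 856.1, 866, 973.3, 992.6 and 1026 TPM in Vehicle. With PLX3397 they were 499.5, 518.3, 624.4, 667.2 and 711.6 TPM, and with PLX3397+Anakinra 426.5, 465.8, 531.2, 591 and 605.1 TPM. Neither PLX3397 group overlapped Vehicle, and both lay above Sham. With injury H2-D1 rose by 1.96 ± 0.10 on the log2 scale (SE, adjusted p = 2.07e-14), H2-K1 by 2.02 ± 0.10 (adjusted p = 1.08e-14) and B2m by 2.00 ± 0.10 (adjusted p = 1.95e-14), all on log2(TPM + 1).

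The light chain kept pace with the heavy chains. The ratio of B2m TPM to the summed H2-K1 and H2-D1 TPM was nearly constant: on the log2 scale its differences between groups lay between -0.08 and 0.05 in the 6 comparisons tested, with adjusted p of at least 0.544 (exact two-sided permutation, n = 4 or 5 mice, adjusted over 42 tests of 7 ratios). The balance between the heavy chains was compared in the same way. H2-K1 relative to H2-D1 was higher by 0.19 on the log2 scale with Anakinra than in Vehicle (exact permutation p = 0.00794, the smallest these groups allow, adjusted p = 0.037). With PLX3397 it was higher by 0.15 (adjusted p = 0.0513, exact permutation). The difference stayed between 0.18 and 0.21 with any 1 mouse left out, but its adjusted p then reached 0.0556 (exact permutation), and 7 of the 10 omissions of a Vehicle or Anakinra mouse ended the call. In all 9 of the 42 ratio tests passed, each at this adjusted p of 0.037. None of the 9 calls remained without Sham mouse J07, J08, J15 or J16 or Vehicle mouse J01B, J18B or J19B. The test sets this limit: with 3 Sham mice the smallest exact p against Vehicle is 0.0179, and with 4 mice in both groups 0.0286. Without a Sham mouse, the 6 calls that use none kept their exact p of 0.00794 but adjusted to 0.0536 to 0.0556 over the 42 tests. All 9 differences kept their sign when any 1 mouse was left out, and their ranges are given with each ratio.

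The peptide transporter and tapasin link the cytosol to class I loading. Tap1 was at 3.013 to 3.45 TPM in Sham, 12.2 to 16.61 TPM in Vehicle, 8.184 to 12.32 TPM with PLX3397 and 8.163 to 9.339 TPM with PLX3397+Anakinra. Tap2 was at 9.954 to 11.61, 21.73 to 28.82, 17.63 to 24.16 and 16.98 to 21.17 TPM in the same groups. Both subunits rose with injury, Tap1 by 1.90 ± 0.11 (log2, SE, adjusted p = 1.64e-13) and Tap2 by 1.13 ± 0.09 (adjusted p = 2.88e-10). The TAP pump is a pair of these subunits, and Tap1 rose more: the Tap1 to Tap2 ratio was higher by 0.78 on the log2 scale in Vehicle than in Sham (0.74 to 0.82 without any 1 mouse, exact permutation p = 0.00794, adjusted p = 0.037). Tapbp, the tapasin gene, rose by 1.09 ± 0.07 (log2, SE, adjusted p = 4.71e-12), from 33.4 ± 1.02 TPM (SD, n = 4) to 72.5 ± 7.7 TPM (SD, n = 5).

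The immunoproteasome subunits had unlike levels. Psmb8 was at 5.219, 6.102, 6.96 and 7.666 TPM in Sham and at 28.54, 39.28, 42.28, 44.86 and 45.9 TPM in Vehicle. With PLX3397 it was at 18.22, 22.4, 26.96, 27.56 and 29.82 TPM, and with PLX3397+Anakinra at 18.75, 19.21, 20.31, 22.72 and 25.88 TPM. With Anakinra alone it was at 42.07, 46.24, 46.95, 51.97 and 52.57 TPM. Psmb8 was thus clear of Sham in every TBI mouse, and the lowest Vehicle mouse fell within the PLX3397 range. Psmb9 was at 2.816 to 4.69 TPM in Sham, 10.34 to 16.17 TPM in Vehicle, 7.133 to 12.8 TPM with PLX3397, 14.99 to 21.3 TPM with Anakinra and 5.274 to 9.23 TPM with PLX3397+Anakinra. Psmb10, by contrast, was abundant in Sham already.

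Psmb10 was at 47.13, 50.43, 54.18 and 57.24 TPM in Sham and at 54.63, 58.56, 59.67, 62.21 and 65.05 TPM in Vehicle. With Anakinra it was at 67.51, 68.01, 70.71, 73.93 and 74.15 TPM. With PLX3397 it ranged from 50.59 to 69.29 TPM and with PLX3397+Anakinra from 50.05 to 63.45 TPM. The Anakinra mice were all above the Vehicle mice, and the other TBI groups overlapped each other. Its log2 difference between Vehicle and Sham was 0.20 ± 0.08 (SE, adjusted p = 0.0295), and leaving out 1 mouse ended this call for 4 of the 24 mice (adjusted p = 0.0601 to 0.123 without Vehicle mouse J19B or J20B or Sham mouse J07 or J16).

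The catalytic subunits that Psmb8, Psmb9 and Psmb10 replace are Psmb5, Psmb6 and Psmb7. Psmb5 had means of 298.3 TPM in Sham and 272.3 TPM in Vehicle, a fall of 0.13 on the log2 scale (adjusted p = 0.0158). Psmb6 rose by 0.20 (adjusted p = 0.000649), and Psmb7 had a difference of -0.03 (adjusted p = 0.612). The other 11 subunits of the 20S core had no call in Vehicle against Sham or in a drug group against Vehicle (limma), with log2 medians between 0.02 and 0.06. The ratio of Psmb8 to Psmb5 TPM was 0.0217 ± 0.00296 in Sham (SD, n = 4), 0.147 ± 0.0234 in Vehicle, 0.0858 ± 0.0153 with PLX3397, 0.165 ± 0.0182 with Anakinra and 0.0734 ± 0.00837 with PLX3397+Anakinra (SD, n = 5 each). It was higher by 2.58 on the log2 scale in Vehicle than in Sham, lower by 0.76 with PLX3397 and lower by 0.97 with PLX3397+Anakinra than in Vehicle, each with the smallest possible p (exact permutation p = 0.00794, adjusted p = 0.037). Without any 1 mouse these differences were 2.53 to 2.69, -0.86 to -0.68 and -1.07 to -0.91. Against Anakinra the ratio differed with PLX3397+Anakinra by -1.13 (-1.19 to -1.09, adjusted p = 0.037, exact permutation).

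Psmb9 relative to Psmb6 followed the same order. It was higher by 1.49 on the log2 scale in Vehicle than in Sham and lower by 0.75 with PLX3397+Anakinra than in Vehicle (adjusted p = 0.037 each, exact permutation), and with PLX3397 alone the difference was -0.47 (adjusted p = 0.0513). Without any 1 mouse the first pair were 1.37 to 1.58 and -0.84 to -0.64, and the difference between PLX3397+Anakinra and Anakinra was -0.91 (-0.98 to -0.80, adjusted p = 0.037, exact permutation). Psmb10 relative to Psmb7 differed by 0.23 between Vehicle and Sham (adjusted p = 0.0889) and by -0.06 with PLX3397+Anakinra (adjusted p = 0.583). In the RNA of whole tissue the ratio was thus shifted towards the immunoproteasome subunits Psmb8 and Psmb9, and for Psmb10 no difference passed the test. Whether subunits were exchanged within cells or the mix of cells differed was not tested.

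**Figure D2:**
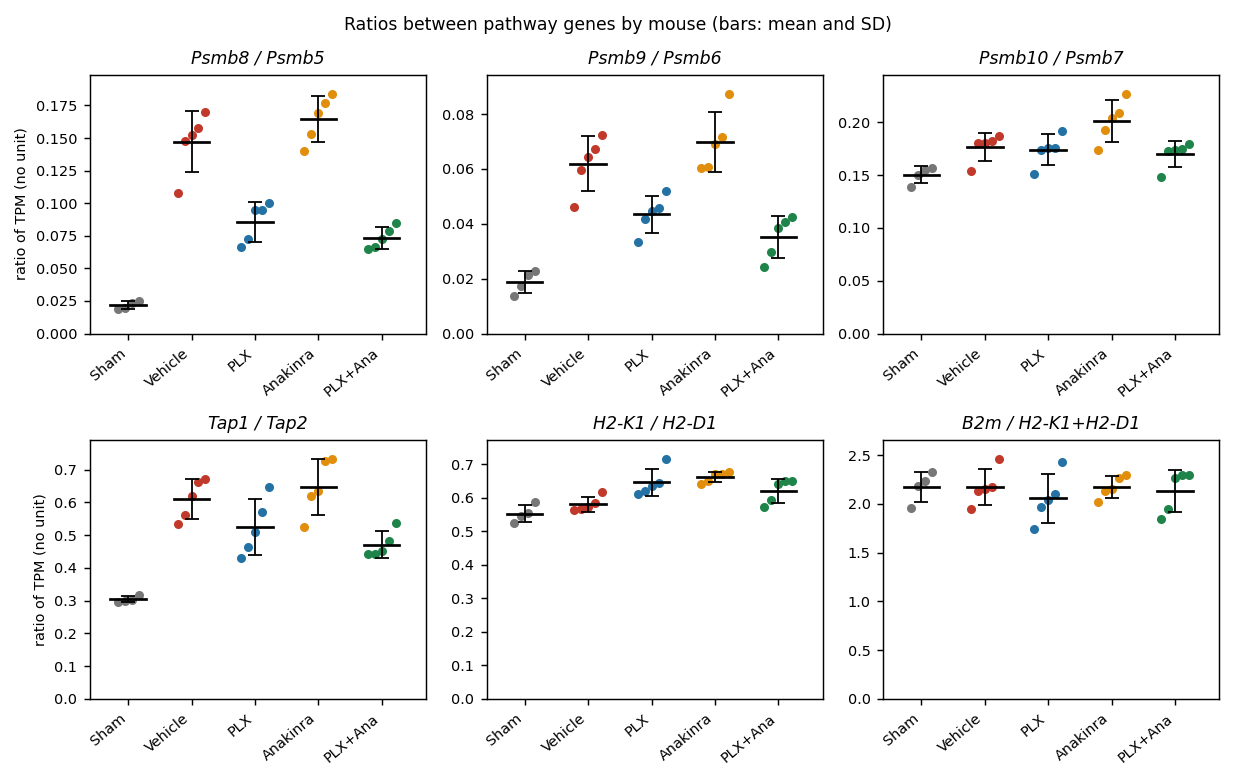
Ratios of TPM (linear axis, no unit) between pathway genes in each mouse, with points for mice and bars for the mean and SD (n = 4 in Sham, 5 in each other group). Psmb8/Psmb5 rises from 0.0217 in Sham to 0.147 in Vehicle and is 0.0734 with PLX3397+Anakinra, while B2m relative to the heavy chains stays level across the groups.

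Nlrc5, the transactivator of class I genes, was the rarest of the 10. It was at 0.3238, 0.4599, 0.5073 and 0.7217 TPM in Sham and at 2.193, 3.577, 3.818, 3.818 and 3.945 TPM in Vehicle. With PLX3397 it was at 1.562, 2.128, 2.436, 2.986 and 3.424 TPM, and with PLX3397+Anakinra at 1.323, 1.779, 1.883, 1.972 and 2.175 TPM. With Anakinra alone it was at 3.227, 3.473, 4.371, 5.138 and 5.625 TPM. Sham stood apart from all TBI mice, PLX3397+Anakinra lay below Vehicle without overlap, and PLX3397 alone overlapped Vehicle. The injury difference was 1.56 ± 0.16 on the log2(TPM + 1) scale (SE, adjusted p = 7.71e-09), a scale that understates changes of so low a gene.

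The drug comparisons asked whether blocking CSF1R, IL1R1 or both changed the injury levels. With PLX3397, 6 of 10 genes were lower than in Vehicle, where 6.66% of all genes tested were lower: H2-D1, H2-K1, B2m, Tap1, Tapbp and Psmb8. Their ratios of means lay between 1.20-fold (Tapbp) and 1.61-fold lower (Psmb8). B2m fell by 0.65 ± 0.09 on the log2 scale (SE, adjusted p = 2.3e-05), H2-D1 by 0.62 ± 0.09 (adjusted p = 3.38e-05) and H2-K1 by 0.47 ± 0.09 (adjusted p = 0.001). Psmb9 (-0.45, adjusted p = 0.0584), Tap2 (-0.24, adjusted p = 0.1) and Nlrc5 (-0.36, adjusted p = 0.139) did not pass, and Psmb10 differed by 0.03 (adjusted p = 0.879). The groups did not overlap for H2-D1 and B2m, 2 of 10 genes, against 4.91% of all genes. The call of Tapbp was lost when only the compared groups were modelled and when Vehicle mouse J18B or PLX3397 mouse J01 was left out (adjusted p = 0.0535 to 0.0855). Without Vehicle mouse J17B, which was the lowest of its group for all 10 genes, 9 of 10 were lower.

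With PLX3397+Anakinra, 9 of 10 genes were lower than in Vehicle, where 9.60% of all genes were lower, and Psmb10 was the exception (-0.04, adjusted p = 0.754). H2-D1 fell by 0.86 ± 0.09 (log2, SE, adjusted p = 1.37e-07), B2m by 0.86 ± 0.09 (adjusted p = 1.8e-07), Psmb8 by 0.87 ± 0.13 (adjusted p = 1.67e-05), Psmb9 by 0.81 ± 0.15 (adjusted p = 0.000376) and Nlrc5 by 0.65 ± 0.15 (adjusted p = 0.00291). Ratios of means for the 9 genes ran from 1.30-fold (Tap2) to 1.90-fold lower (Nlrc5). For 8 of the 10 the mice did not overlap Vehicle, against 6.62% of all genes. None of the 10 met the stricter criteria of the study in this comparison, which ask for a ratio above 2 and a difference above 4 TPM besides an unadjusted p below 0.05, where 1.55% of all genes tested were lower by them. In Vehicle against Sham 8 of the 10 met these criteria, where 5.11% of all genes were higher by them.

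Anakinra alone gave no call among the 10 against Vehicle (limma), where 20 genes were called in all (0.116%). Psmb10 differed by 0.24 ± 0.07 (limma adjusted p = 0.149) and Psmb8 by 0.26 ± 0.13 (limma adjusted p = 0.397), the 2 genes with an unadjusted p below 0.05. The estimate was above 0 for 9 of the 10, with a median of 0.16 against -0.015 over all genes tested. The 95% intervals of H2-D1 (-0.23 to 0.15) and B2m (-0.15 to 0.23) leave out changes as large as those seen with PLX3397. Those of Tap2 (-0.08 to 0.28), Psmb9 (-0.06 to 0.56) and Nlrc5 (-0.05 to 0.57) include a rise as large as their estimated fall with PLX3397. Against Anakinra, all 10 genes were lower with PLX3397+Anakinra, where 8.10% of all genes were lower, and 9 were lower with PLX3397, where 5.41% were. Of the latter, the call of Tap2 (-0.34, adjusted p = 0.0192) was lost with animal numbers as a replicate block (-0.18, adjusted p = 0.28), with only the compared groups modelled (adjusted p = 0.0508) and without PLX3397 mouse J01 or J19 or Anakinra mouse J05 (adjusted p = 0.07 to 0.081). That of Nlrc5 (-0.62, adjusted p = 0.00895) was lost with the replicate block (-0.59, adjusted p = 0.051). Psmb8 and Psmb9 also met the study's criteria between PLX3397+Anakinra and Anakinra, at 2.24-fold and 2.20-fold lower means, where 1.55% of all genes were lower by them. The mice of these groups did not overlap for any of the 10, against 7.26% of all genes in this direction. Comparisons with Anakinra and with Vehicle share the PLX3397 and PLX3397+Anakinra mice.

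**Figure D3:**
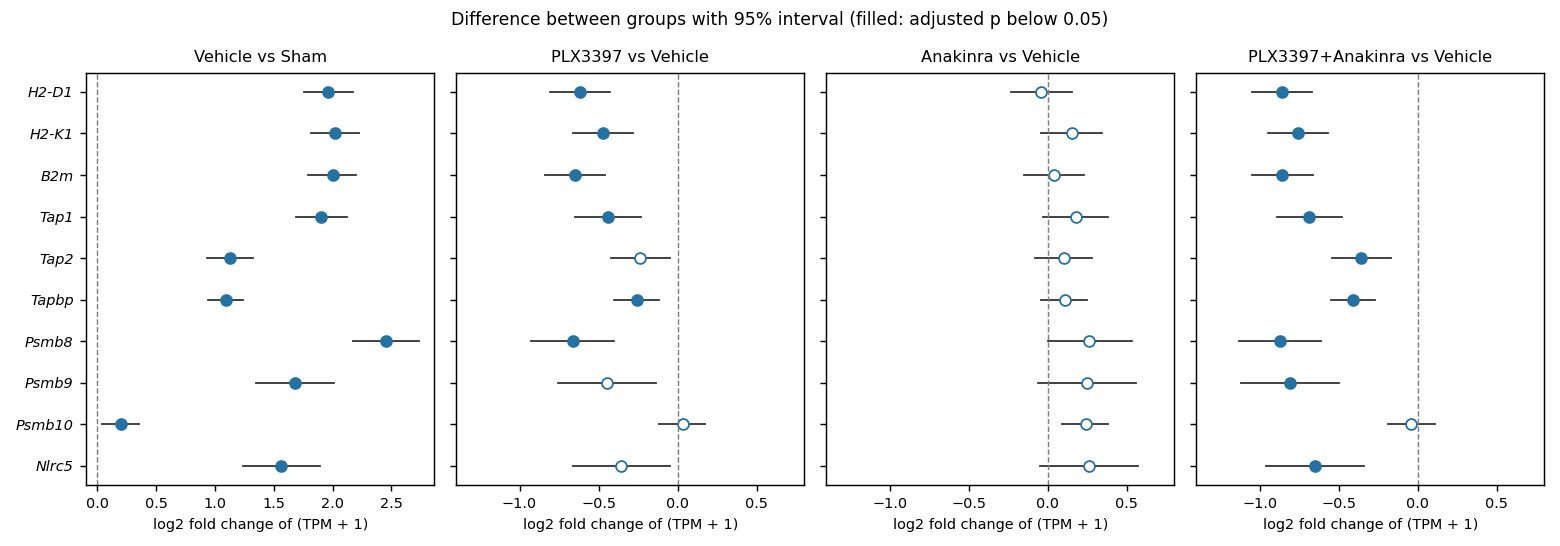
Log2 fold change of TPM + 1 for each gene in 4 comparisons, with 95% intervals from limma; filled points have an adjusted p below 0.05. Points lie right of 0 for all 10 genes with injury, and left of 0 for 9 with PLX3397 and for all 10 with PLX3397+Anakinra. With Anakinra they lie between -0.04 and 0.26, right of 0 for 9, and 0 are filled.

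Adding Anakinra to PLX3397 gave no call among the 10 (limma, adjusted p from 0.345 to 0.928), where 0.145% of all genes were lower. All 10 estimates were below 0, with a median of -0.22 against 0.007 over all genes tested, and 6 had an unadjusted p below 0.05. The largest were Psmb9 (-0.36 ± 0.15), H2-K1 (-0.29 ± 0.09) and Nlrc5 (-0.29 ± 0.15), and the mice overlapped for each of the 10. The interaction, the effect of Anakinra on top of PLX3397 minus its effect on vehicle, was called for none of the 10 and for 0 of all genes tested (0%). Its estimates were also below 0 for all 10, with a median of -0.36 against 0.023 over all genes tested. The largest was that of Psmb9 (-0.61 ± 0.21, limma adjusted p = 0.467), and 7 had an unadjusted p below 0.05. Both contrasts use the PLX3397 and PLX3397+Anakinra mice, so they are not separate evidence. The 10 genes also varied together within groups (median r = 0.61), so their shared signs are not 10 separate results. The shares of all genes below 0 or at an unadjusted p below 0.05 are not given here.

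None of the drug groups returned to Sham. Against Sham, all 10 genes were higher with PLX3397 (22.7% of all genes were higher), all 10 with Anakinra (25.1%) and 9 with PLX3397+Anakinra (20.7%), where Psmb10 did not pass (0.16, adjusted p = 0.105). Psmb10 did pass there with library weights (adjusted p = 0.0343), with the replicate block (adjusted p = 0.0114) and without PLX3397+Anakinra mouse J17 (adjusted p = 0.0255). Its call with PLX3397 against Sham (0.22, adjusted p = 0.0181) was lost without PLX3397 mouse J02 (adjusted p = 0.0641) or Sham mouse J16 (adjusted p = 0.0834). Of the difference in mean TPM between Vehicle and Sham, between 52.2% (B2m) and 72.9% (Tap2) was present with PLX3397 for the 9 genes other than Psmb10, with a median of 62.9%. With PLX3397+Anakinra it was 38.2% (Psmb9) to 59.6% (Tap2), and with Anakinra 96.4% (H2-D1) to 130% (Nlrc5). Psmb10 had an injury difference of only 7.78 TPM, of which 117%, 239% and 79.1% was present in the PLX3397, Anakinra and PLX3397+Anakinra groups.

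The paper describes CSF1R, the target of PLX3397, as present on other myeloid cells besides microglia. The microglial markers are RNA levels and not counts of these cells. All 12 (such as P2ry12, Tmem119, Csf1r and Cx3cr1) were higher in Vehicle than in Sham, and all 12 were lower with PLX3397 and with PLX3397+Anakinra than in Vehicle. Their summed level was 399.9 to 414.9 TPM in Sham, 1631 to 2105 TPM in Vehicle, 725.6 to 1109 TPM with PLX3397, 1796 to 2034 TPM with Anakinra and 653.3 to 863.1 TPM with PLX3397+Anakinra. Of the summed injury difference, 28.9% was present with PLX3397 and 22.6% with PLX3397+Anakinra. The highest single marker, Trem2, had 43.8% and 31.5%, so that with PLX3397 each of the 9 class I genes other than Psmb10 held a larger share of its injury difference than any of the 12 microglial markers. The markers were lower with PLX3397 by a median of 1.35 on the log2 scale, against 0.44 for the class I genes. For the 8 monocyte and macrophage genes tested this median was 0.95, and for the inhibitory receptors Lilrb4a and Pirb it was 0.71. Shares of the injury difference are given for the microglial markers only, so a larger share is not shown to be particular to class I genes.

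**Figure D4:**
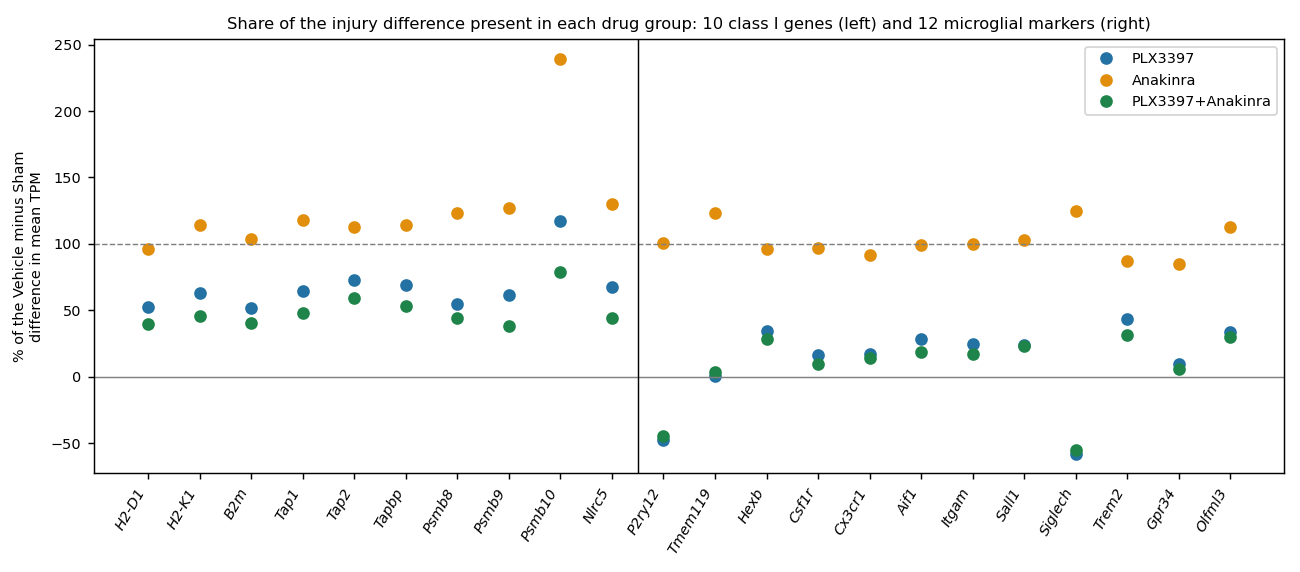
Share of the Vehicle minus Sham difference in mean TPM (percent, linear axis) that was present in each drug group, for the 10 class I genes (left) and the 12 microglial markers (right); the dashed line is Vehicle and the solid line Sham. With PLX3397 the class I genes other than Psmb10 lie between 52.2% and 72.9% and the microglial markers between -57.7% and 43.8%.

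Markers of other cells moved with the drugs too. Over all genes tested, 6.66% were lower with PLX3397 and 9.60% with PLX3397+Anakinra than in Vehicle. With PLX3397+Anakinra, 1360 of 17267 genes were higher. Monocyte and macrophage genes summed to 73.33 to 151.3 TPM in Vehicle, 35.22 to 74.39 TPM with PLX3397 and 14.22 to 21.75 TPM with PLX3397+Anakinra, with 6 of 8 tested genes lower in both of these groups than in Vehicle. With Anakinra alone they summed to 69.18 to 100.9 TPM and none of the 8 was called (limma). Of 3 neutrophil markers tested, Mmp8, a collagenase of neutrophil granules, had a mean of 3.819 TPM in Vehicle and was lower with PLX3397 (2.374 TPM), Anakinra (2.064 TPM) and PLX3397+Anakinra (0.6628 TPM), and S100a8 and S100a9 were not called. All 5 red blood cell genes fell with PLX3397 and with PLX3397+Anakinra, and summed to 1507 to 4406 TPM in Vehicle, 606.3 to 1072 TPM with PLX3397 and 724.9 to 950.8 TPM with PLX3397+Anakinra. Endothelial markers had no call with either, and neuronal markers were higher for 4 of 5 genes with PLX3397+Anakinra. What part microglia and these other cells had in the class I levels was not tested. Of 10 lymphocyte markers only 1 was expressed highly enough to be tested, and this gene, Cd4, was not called in Vehicle against Sham or in any drug group against Vehicle, but was higher with PLX3397+Anakinra than in Sham (0.29 ± 0.10, adjusted p = 0.0258).

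The genes around the members were described from lists of related genes. Over all genes tested, 26.6% rose with injury, 6.66% fell with PLX3397 and 9.60% fell with PLX3397+Anakinra. These shares stand beside the counts of each related list below. Among 19 further class I and class I-like chains, 13 were tested, of which 11 rose and 1 fell with injury, 4 fell with PLX3397 and 8 fell with PLX3397+Anakinra. H2-Q4 rose by 1.54 ± 0.10 (log2, SE, 6.988 to 22.39 TPM) and Hfe, which regulates iron uptake, by 1.54 ± 0.11 (4.915 to 16.27 TPM). H2-Q7 went from 0.8258 to 4.094 TPM and H2-Q6 from 1.016 to 4.356 TPM with injury, and H2-Q6 fell to 1.719 TPM with PLX3397+Anakinra (-0.99 ± 0.20, adjusted p = 0.000946). H2-T23, the chain recognised by NKG2 receptors, was at 35.01 TPM in Sham, 72.13 TPM in Vehicle and 50.62 TPM with PLX3397+Anakinra (-0.50 ± 0.07, adjusted p = 1.95e-05). The H2-Q genes resemble each other closely, so their separate levels are uncertain.

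Of 8 genes of peptide loading and trimming, 6 rose with injury, 4 fell with PLX3397 and 2 fell with PLX3397+Anakinra. Erap1, the aminopeptidase that trims peptides in the endoplasmic reticulum, rose from 6.251 to 13.3 TPM (0.98 ± 0.10) and fell to 10.19 TPM with PLX3397+Anakinra (-0.35 ± 0.09, adjusted p = 0.00999). The chaperones Calr, Pdia3 and Hspa5 rose by 0.45, 0.65 and 0.61 with injury. These chaperones serve protein folding in general, and with PLX3397 they fell by 0.22, 0.22 and 0.33. The proteasome activator subunits Psme1 and Psme2, which cap the core and are induced by interferon gamma, rose by 0.58 ± 0.08 and 0.73 ± 0.10, and Psme1 fell with PLX3397+Anakinra by 0.21 ± 0.07 (adjusted p = 0.0394), while Psme2 did not pass (-0.24 ± 0.10, adjusted p = 0.0901). Psme3, the nuclear activator, fell by 0.20 with injury.

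Of 17 regulators of class I genes, 12 rose and 1 fell with injury, 4 fell with PLX3397 and 10 with PLX3397+Anakinra. Irf8, a factor of the myeloid lineage, rose by 2.50 ± 0.13 (4.83 to 31.95 TPM), and fell by 1.24 ± 0.13 with PLX3397 and by 1.56 ± 0.13 with PLX3397+Anakinra. Irf9, a factor of the type I interferon response, went from 10.61 to 30.38 TPM and fell to 22.43 TPM with PLX3397+Anakinra. Irf1 was at 5.422 TPM in Sham and 11.66 TPM in Vehicle (0.97 ± 0.10, adjusted p = 7.13e-09) and fell to 9.185 TPM with PLX3397+Anakinra (-0.31 ± 0.09, adjusted p = 0.0205). Ifngr1, the interferon gamma receptor chain, fell by 0.45 ± 0.09 with PLX3397 and by 0.57 ± 0.09 with PLX3397+Anakinra.

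The interferon genes themselves were hardly seen. Ifng was above 0 in 3 of 24 libraries, with at most 0.227 TPM, and Ifnb1 in 3 of 24, with at most 0.179 TPM. None of the 5 interferon genes listed reached the minimum level for testing. Among 13 genes of cells that read class I, 11 were below that level too, and Cd8a, which marks cytotoxic T cells, had a highest group mean of 0.111 TPM. At an unknown depth these values do not show that such cells or transcripts were absent. The remaining pair were the inhibitory receptors Lilrb4a, which rose from 0.4216 to 42.64 TPM, and Pirb, a receptor that binds class I, which rose from 0.3504 to 8.609 TPM with injury (2.81 ± 0.17 on the log2 scale). Pirb was at 5.055 TPM with PLX3397 and 2.516 TPM with PLX3397+Anakinra, a difference of -0.78 ± 0.16 between these groups (adjusted p = 0.0415).

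Within groups the members varied together. After the group means were removed, all 45 pairs of the 10 genes had a positive correlation over the 24 libraries (median r = 0.61), from 0.20 for B2m and Tap2 to 0.91 for H2-D1 and H2-K1. These are descriptions over libraries that share depth and tissue make-up, and no values over pairs of all genes are given beside them. Vehicle mouse J17B, the lowest of its group for all 10 genes, enters every pair. Genes most like H2-K1 by this measure were Pycard and Tcn2 (r = 0.82 each), Hmmr (0.81), Itih5 and H2-T23 (0.80 each). Tap1 was most like Parp12 (0.87), and Usp18 (0.83), Rnf213 and Ddx58 (0.82 each) also ranked among its closest genes. Psmb8 was most like Ms4a6c (0.89), Bst2 (0.86), Ifitm3 (0.85), Irf7 (0.83) and H2-Q4 (0.82), and Nlrc5 most like Parp12 (0.83), Rnf213, Parp10 and Gbp10 (0.79 each) and Parp14 (0.78).

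**Figure D5:**
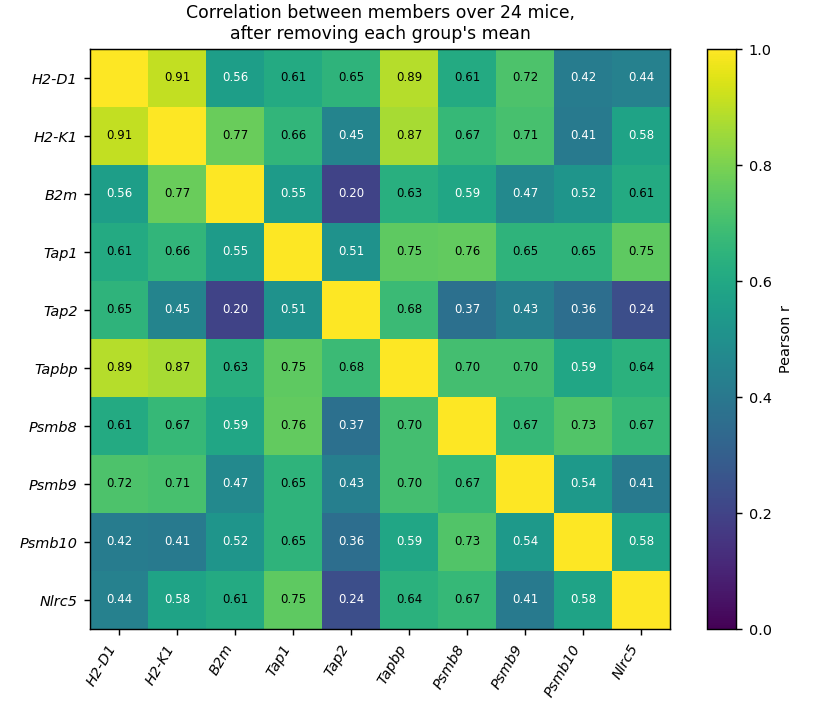
Pearson r between the log2(TPM + 1) values of each pair of the 10 genes over 24 mice after each group's mean was removed (colour scale from 0 to 1). All pairs are positive, and H2-D1 with H2-K1 is the highest (0.91) and B2m with Tap2 the lowest (0.20).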

How the data were processed

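Total RNA from the lesion and its surroundings was enriched for poly(A), sequenced in paired-end mode (150 cycles) for 24 mice, and processed by the authors in CLC Genomics Workbench against GRCm38. The authors deposited TPM per gene. The full table was used, a table of the same values rounded by the authors was an alternative, and a filtered table with the authors' p and F values was not used. TPM keep no read counts, so depth is unknown and precision rests on the spread between mice. Groups follow the labelled treatments.

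TPM were converted to log2(TPM + 1). Genes that averaged 0.5 TPM or more entered 1 limma fit (version 3.58.1, R 4.3.3) with all 24 libraries, 1 mean per group and a variance trend, and p-values were Benjamini-Hochberg adjusted over 17267 genes. Adjusted p below 0.05 was a call. The study names t-tests for its comparisons, and its criteria on ratio, difference and unadjusted p were applied beside. For ratios of genes, mice were permuted between groups (exact, two-sided) on log2 ratios with 1 TPM added to each term, for 42 tests adjusted together. The limma fit was tried on data simulated from the residuals of these libraries, for PLX3397+Anakinra against Vehicle only. Other contrasts and the ratio tests were not covered. The members, related lists and naming rules (related genes by the size of their change among those called, likeness by correlation of group-centred values) were chosen with earlier results of these data known. Alternatives were other pseudocounts, filters, scalings, weights, variance models, the rounded table, subsets of groups, a block by animal number, and leaving out each mouse. Gene positions and promoters came from RefSeq (GRCm38.p6). The values of 1 regulator are not reported here, although it stays in the counts of its list.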

Additional observations from a re-analysis of the deposited data

Results flagged for a closer look

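In the 50 sets of 4 or 5 mice examined (10 genes in 5 groups), 3 held a mouse set far apart by Dixon's criterion, and chance alone flags about 1 in 20. In all 3 it was Vehicle mouse J17B, the lowest of its group, with 219.5 TPM for H2-D1, 58.83 TPM for Tapbp and 2.193 TPM for Nlrc5. The mean of log2(TPM + 1) over the 10 genes was 5.45 in this mouse and 5.77 to 5.86 in the other Vehicle mice. Without it, 9 of 10 genes were lower with PLX3397 than in Vehicle, in place of 6, and 9 with PLX3397+Anakinra, as with all mice.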

How the results depend on the processing

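Of 969 log2 differences of single genes under other settings, 955 kept their direction and side of the threshold, as did 2616 of 2640 with 1 mouse left out. Genes called with PLX3397 against Vehicle numbered 5 to 9 without 1 mouse and 5 to 8 under other settings. Directions turned for estimates near 0 that were never called: Psmb10 with PLX3397 (-0.02 with the replicate block, -0.02 to 0.09 without 1 mouse), Psmb10 with PLX3397+Anakinra (-0.07 to 0.01 without 1 mouse), B2m with Anakinra (-0.01 with library weights, -0.02 with the block), Tap2 with Anakinra (-0.12 with the block) and H2-D1 with Anakinra (-0.12 to 0.00 without 1 mouse). Ratio tests with an adjusted p below 0.05, 9 with all mice, numbered 0 to 15 without 1 mouse. They were 0 without each Sham mouse and without Vehicle mice J01B, J18B and J19B, and 15 without Anakinra mouse J21. Leaving out a Sham mouse raises the smallest p that the tests against Sham allow. Vehicle and drug mice share 4 animal numbers once the letter B of the Vehicle mice is dropped. What else the mice of a pair share is not given. Their deviations from the group means correlated at 0.17, 0.32, -0.13 and -0.07. With the replicate block 8 genes were lower with PLX3397 and 9 with PLX3397+Anakinra than in Vehicle, and 7 with PLX3397 than with Anakinra, in place of 9. Only Vehicle numbers carry this letter, and if it marks a batch it cannot be told apart from vehicle treatment. Depth is unknown, which limits what can be said of Nlrc5 and of genes near 0. Nothing in the labels says how litters or cages were shared.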
